A study of Mus musculus with 4 samples.

Results

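The early, or mevalonate, arm of cholesterol synthesis was followed through 8 genes: Acat2, Hmgcs1, Mvk, Pmvk, Mvd, Idi1, Fdps and Ggps1. They were chosen by symbol from the 27998 genes counted, without use of their levels, and all 8 were found in each library. The arm builds the isoprenoid units of cholesterol from acetyl-CoA. Acat2, Hmgcs1, Mvk, Pmvk, Mvd, Idi1 and Fdps carry the chain as far as farnesyl diphosphate, the branch point from which squalene and then sterols are made. Ggps1 takes farnesyl diphosphate into another branch that ends in prenylated proteins. Most genes of sterol synthesis are activated by the transcription factor SREBP2, the product of Srebf2, when sterols in the endoplasmic reticulum run low. Lipoproteins of the blood hardly enter the adult brain, which makes its own cholesterol, in astrocytes and oligodendrocytes above all, and carries it between cells on apoE particles. The reduction that yields mevalonate itself was not analysed here.

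The data were UMI counts (unique molecular identifiers, 1 per captured RNA molecule) from droplet-based sequencing of nuclei isolated from frozen hippocampi of B6 mice at 9 months. P301S/EKO mice (7 hippocampi pooled) lacked Apoe and carried a transgene of human tau that bears P301S, P301S mice (8 pooled) carried the transgene alone, EKO mice (7 pooled) lacked Apoe alone, and WT mice (7 pooled) had neither. The labels name neither the transgenic line nor its promoter, and the series' other 2 genotypes were not analysed here. Each genotype was 1 pooled library, so every difference below is between 2 pools of animals, has no replicate check and carries no p-value. Intervals in brackets are 95% and cover counting error only.

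After filtering, 5327 nuclei were kept in P301S/EKO, 2865 in P301S, 5222 in EKO and 5263 in WT, with median depths of 1424, 2142, 1445 and 1904 UMIs in the same order. The P301S library thus stood apart by its low number of nuclei and its depth. Apoe stood at 19.9 UMIs per 1000000 UMIs of the library (CPM) in P301S/EKO, 6403 in P301S, 16.3 in EKO and 1935 in WT, which fits the knockout labels. Any pair of libraries shared 19 to 69 barcodes, at most 1.15% of the smaller library. Clustering gave 12 classes of nuclei, 10 of them with at least 50 nuclei in all 4 libraries. Names such as astrocyte-like rest on marker genes, and 1 class of 2283 nuclei stayed unnamed. A cluster of 195 nuclei within the CA1 neuron-like class was led by Prl, Fos, Npas4 and Gh. Dentate granule neuron-like nuclei made up 18.9% of P301S/EKO, 5.58% of P301S, 26.0% of EKO and 12.5% of WT nuclei, and microglia-like nuclei 6.48%, 11.3%, 2.72% and 4.14%.

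The members' promoters are shown for Acat2, Hmgcs1, Mvd and Idi1, the 4 members that were at least 1.5-fold higher in P301S/EKO than in P301S, and for Ggps1, which was not. Each window runs from 250 bases before to 50 after the annotated start, 5′ to 3′ on the gene's strand, from RefSeq (GRCm38.p6). Capitals mark matches, on either strand, to a core of the sterol regulatory element (CACCCCAC), to its looser form TCACNCCAC, which overlaps the core, to the CCAAT box (CCAAT) and to the GC box (GGGCGG). The windows lie at chr17:12960676-12960975 on the minus strand (Acat2), chr13:119690101-119690400 on the plus strand (Hmgcs1), chr8:122443373-122443672 on the minus strand (Mvd), chr13:8885356-8885655 on the plus strand (Idi1) and chr13:14063439-14063738 on the minus strand (Ggps1).
Acat2: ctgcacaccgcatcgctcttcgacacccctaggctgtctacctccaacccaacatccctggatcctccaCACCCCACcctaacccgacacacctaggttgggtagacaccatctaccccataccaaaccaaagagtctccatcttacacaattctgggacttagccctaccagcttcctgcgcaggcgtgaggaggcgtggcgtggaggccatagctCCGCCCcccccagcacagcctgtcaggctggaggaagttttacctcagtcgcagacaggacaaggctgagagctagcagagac
Hmgcs1: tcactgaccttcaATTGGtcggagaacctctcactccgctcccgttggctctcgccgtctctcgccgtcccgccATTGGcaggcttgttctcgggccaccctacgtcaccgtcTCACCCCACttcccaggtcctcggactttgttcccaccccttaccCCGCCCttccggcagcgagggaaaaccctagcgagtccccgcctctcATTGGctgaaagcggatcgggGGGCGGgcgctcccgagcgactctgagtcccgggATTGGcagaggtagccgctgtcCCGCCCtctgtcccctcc
Mvd: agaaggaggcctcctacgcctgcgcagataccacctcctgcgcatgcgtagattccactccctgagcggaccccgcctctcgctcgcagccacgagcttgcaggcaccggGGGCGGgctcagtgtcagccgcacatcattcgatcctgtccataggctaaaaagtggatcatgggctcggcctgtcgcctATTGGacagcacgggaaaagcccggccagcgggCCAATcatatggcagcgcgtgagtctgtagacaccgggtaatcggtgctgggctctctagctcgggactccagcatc
Idi1: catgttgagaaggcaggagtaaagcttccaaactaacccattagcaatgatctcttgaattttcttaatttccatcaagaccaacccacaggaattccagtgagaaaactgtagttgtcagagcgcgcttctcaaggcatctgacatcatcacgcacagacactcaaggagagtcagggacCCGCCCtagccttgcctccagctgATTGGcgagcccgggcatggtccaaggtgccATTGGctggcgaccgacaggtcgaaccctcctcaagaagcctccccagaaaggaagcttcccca
Ggps1: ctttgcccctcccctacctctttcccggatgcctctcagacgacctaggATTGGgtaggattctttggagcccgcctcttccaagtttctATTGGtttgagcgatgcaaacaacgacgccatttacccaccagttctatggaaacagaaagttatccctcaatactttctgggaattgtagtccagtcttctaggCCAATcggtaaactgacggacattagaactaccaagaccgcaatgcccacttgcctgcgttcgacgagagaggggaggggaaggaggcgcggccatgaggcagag

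Of the 7 members with a promoter in the table used, Acat2 and Hmgcs1 held the sterol regulatory core, which 2.87% of all 32851 promoters hold. Hmgcs1 alone held the looser form, found in 1.24% of promoters. A CCAAT box was found in 6 members, most often in Mvk with 5 matches and Hmgcs1 with 4, against 37.4% of all promoters with at least 1. The GC box was found in 5 members and in 35.7% of all promoters. These are matches of letters and show no binding.

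In all nuclei together, Acat2, Hmgcs1, Mvd, Idi1 and Fdps were lowest in the P301S library, while Pmvk and Ggps1 were highest there. Acat2, the cytosolic thiolase that joins acetyl-CoA units (chr17:12942890-12960747), stood at 11.6 CPM in P301S/EKO (9.46 to 14.0), 7.22 in P301S (5.42 to 9.42), 10.8 in EKO (8.74 to 13.2) and 11.9 in WT (10.0 to 14.0). P301S was the low library, and its interval stayed apart from those of P301S/EKO and WT. Hmgcs1, the cytosolic HMG-CoA synthase (chr13:119690379-119708260), had 35.0 CPM in P301S/EKO (31.2 to 39.1), 21.9 in P301S (18.7 to 25.5), 38.2 in EKO (34.3 to 42.5) and 42.1 in WT (38.5 to 46.0). The P301S interval lay below the other 3, which came from 314 UMIs in P301S/EKO, 340 in EKO and 509 in WT, against 164 in P301S.

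Mvk, mevalonate kinase (chr5:114444269-114460591), differed little among the libraries, with 9.13 CPM in P301S/EKO, 10.8 in P301S, 10.2 in EKO and 11.01 in WT. All 4 of its intervals overlapped. Pmvk, the phosphomevalonate kinase of the next step (chr3:89454541-89469013), stood at 29.7 CPM in P301S/EKO (26.3 to 33.5), 34.9 in P301S (30.8 to 39.4), 31.7 in EKO (28.1 to 35.6) and 26.1 in WT (23.3 to 29.1). Here P301S was the high library and WT the low one, with intervals that did not overlap. Mvd, which decarboxylates the product to isopentenyl diphosphate (chr8:122433601-122443422), had 10.7 CPM in P301S/EKO, 6.55 in P301S (4.84 to 8.66), 13.3 in EKO (10.98 to 15.9) and 9.44 in WT (7.78 to 11.3). It was low in P301S and highest in EKO.

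Idi1, the isomerase of isopentenyl diphosphate (chr13:8885501-8892451), had 10.8 CPM in P301S/EKO (8.76 to 13.2), 6.55 in P301S (4.84 to 8.66), 12.4 in EKO (10.2 to 14.9) and 12.99 in WT (11.04 to 15.2). Only the P301S library lay below the others beyond its counting interval. Fdps, farnesyl diphosphate synthase (chr3:89093588-89101959), was counted most, with 664 UMIs or 73.9 CPM in P301S/EKO (68.4 to 79.8), 385 UMIs or 51.4 CPM in P301S (46.4 to 56.9), 831 UMIs or 93.4 CPM in EKO (87.1 to 99.95) and 892 UMIs or 73.8 CPM in WT (69.1 to 78.8). P301S was low and EKO high, and P301S/EKO and WT nearly coincided. Ggps1, geranylgeranyl diphosphate synthase (chr13:14050659-14063488), stood at 10.4 CPM in P301S/EKO, 13.2 in P301S, 12.02 in EKO and 11.1 in WT, with overlapping intervals throughout.

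**Figure D1:**
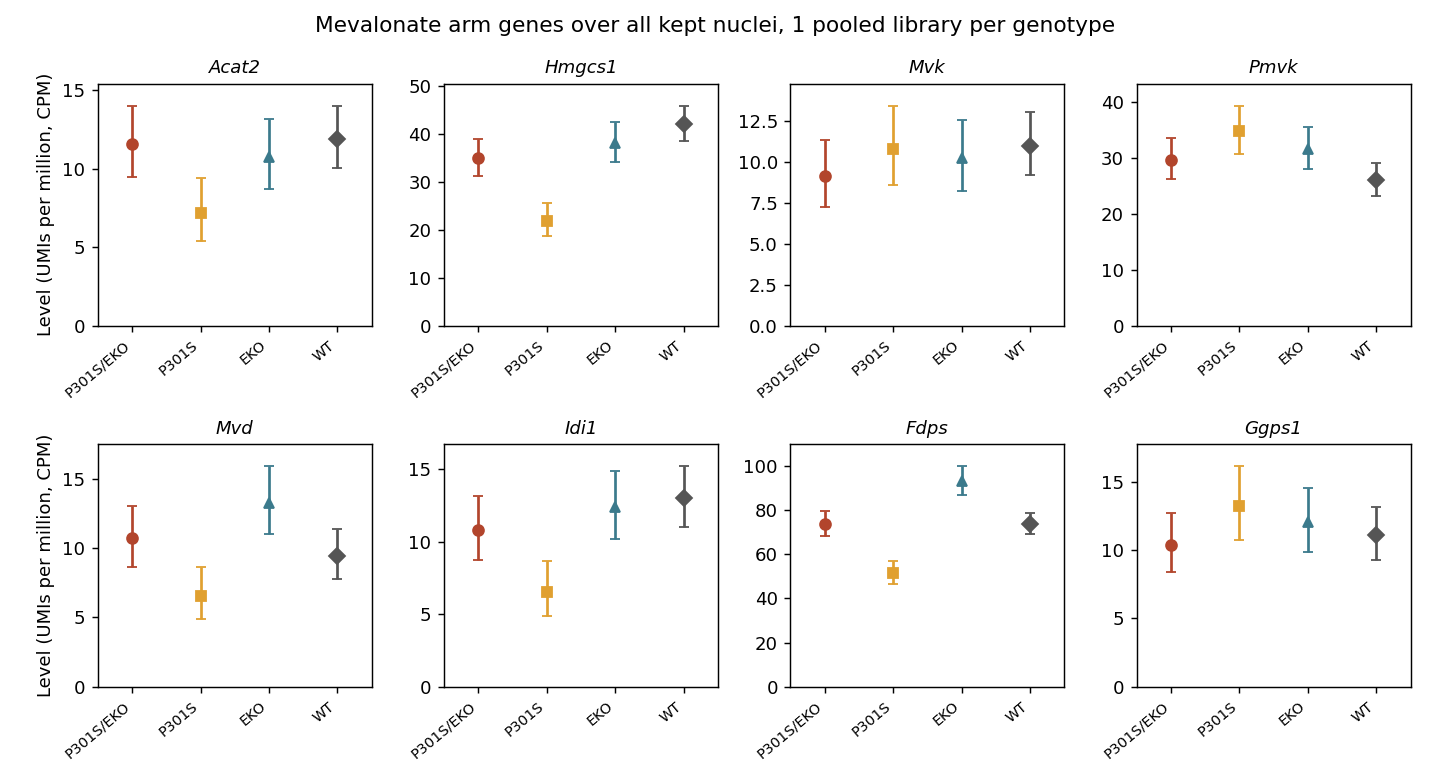
Levels in CPM of the 8 members over all kept nuclei in the P301S/EKO, P301S, EKO and WT libraries, 1 point per library with its 95% counting interval. Hmgcs1 stands at 35.0, 21.9, 38.2 and 42.1 CPM and Fdps at 73.9, 51.4, 93.4 and 73.8 CPM from left to right, with P301S lowest in both.

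Some of these counts may mix near copies. Acat2 shares 97.4% of 153 aligned bases near its 3′ end with Acat3, which had 8 UMIs in P301S/EKO, 12 in P301S, 8 in EKO and 14 in WT. Gm43738, on the same strand as Fdps and identical to its last 300 bases, had 0, 1, 0 and 0 UMIs in that order. Gm20388, over the 3′ end of Mvd on the opposite strand, had 0 UMIs in all 4 libraries. Copies of Idi1, Ggps1 and Fdps elsewhere in the genome are not counted as genes in the files, so the levels of these 3 members are uncertain to the extent that reads were shared or discarded.

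Ratios between members do not depend on how libraries are scaled. Per UMI of Pmvk, Hmgcs1 had 1.18 UMIs in P301S/EKO (0.996 to 1.39), 0.628 in P301S (0.514 to 0.767), 1.21 in EKO (1.03 to 1.42) and 1.62 in WT (1.40 to 1.87). The P301S interval lay below the other 3. Idi1 had 0.363 UMIs per UMI of Pmvk in P301S/EKO (0.285 to 0.460), 0.188 in P301S (0.135 to 0.256), 0.390 in EKO (0.310 to 0.488) and 0.498 in WT (0.409 to 0.605). Fdps had 7.14 UMIs per UMI of Ggps1 in P301S/EKO, 3.89 in P301S (3.11 to 4.90), 7.77 in EKO and 6.66 in WT (5.55 to 8.04). Pmvk and Ggps1 serve as denominators here after being seen highest in P301S. Per UMI of Fdps, Hmgcs1 had 0.473 UMIs in P301S/EKO (0.412 to 0.542), 0.426 in P301S (0.353 to 0.513), 0.409 in EKO (0.360 to 0.465) and 0.571 in WT (0.511 to 0.637). By this ratio the P301S interval overlapped those of P301S/EKO and EKO, and narrowly that of WT, so P301S did not stand apart.

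Thinned to 1000 UMIs each, with shallower nuclei left out, 3.56% of nuclei had a Hmgcs1 UMI in P301S/EKO, 1.95% in P301S, 3.66% in EKO and 4.21% in WT, from 4098, 2865, 4181 and 5135 nuclei. This left out 1229 nuclei of P301S/EKO, 0 of P301S, 1041 of EKO and 128 of WT. The unthinned shares were 5.50%, 5.48%, 5.96% and 8.55% in that order. For Fdps the thinned shares were 6.81%, 4.85%, 8.80% and 6.84%, and the unthinned ones 11.1%, 11.8%, 14.2% and 14.5%. At equal depth P301S was the low library for both genes, as it was by CPM.

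The first comparison asked how the tau transgenic hippocampus without Apoe differed from that with it. Between P301S/EKO and P301S, 4 of the 8 members were at least 1.5-fold higher and 0 were at least 1.5-fold lower, where 2.26% of the 14406 genes compared were that much higher and 22.6% that much lower. Idi1 was 1.65-fold (1.16 to 2.38), Mvd 1.63-fold (1.15 to 2.35), Hmgcs1 1.60-fold (1.32 to 1.94) and Acat2 1.60-fold (1.15 to 2.27) the P301S level. Fdps, at 1.44-fold (1.27 to 1.63), was short of the limit with an interval above 1. Pmvk, Mvk and Ggps1 stood at 0.853, 0.844 and 0.783 of the P301S level. The median log2 ratio was 0.60 over the members and -0.23 over all genes.

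The second comparison set P301S beside WT and shares the P301S library with the first, so their opposite signs are not independent. Of the members, 3 were at least 1.5-fold lower and 0 higher, where 2.50% of 14736 genes were that much lower and 19.7% that much higher. Idi1 stood at 0.504 of the WT level (0.358 to 0.698), Hmgcs1 at 0.520 (0.434 to 0.621) and Acat2 at 0.605 (0.434 to 0.833). Mvd, at 0.694 (0.486 to 0.978), and Fdps, at 0.697 (0.617 to 0.786), were inside the limit with intervals below 1. Pmvk, at 1.34-fold (1.13 to 1.58), went the other way, and Mvk (0.983) and Ggps1 (1.19) had intervals that held 1. The members' median log2 ratio was -0.52, against 0.21 over all genes. Scaling by the median of gene ratios in place of total UMIs lowered every log2 ratio here by 0.24 and raised those of the first comparison by a like amount. On that scale 5 members were at least 1.5-fold lower in P301S than in WT, and the log2 ratios of Mvk and Pmvk in P301S/EKO over P301S turned from below 0 to 0.00061 and 0.016.

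**Figure D2:**
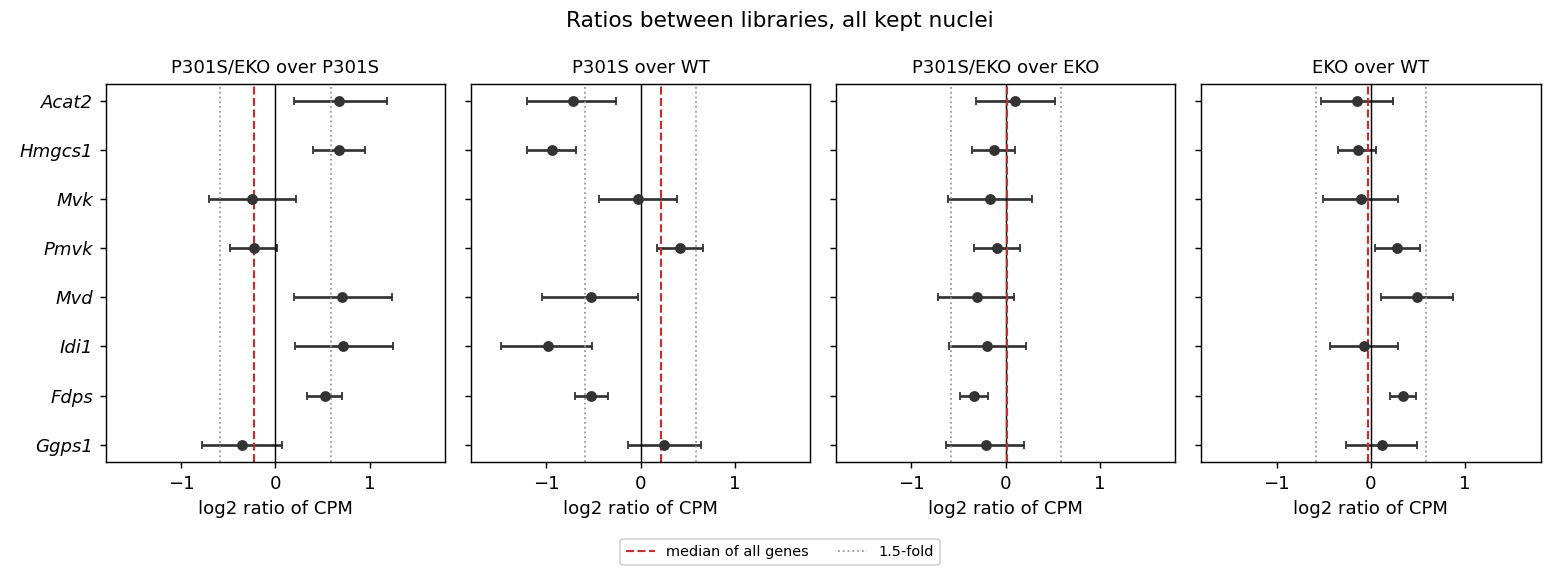
Log2 ratios of the 8 members over all kept nuclei in the 4 comparisons, with 95% counting intervals, the 1.5-fold limits and the median of all genes compared. In P301S/EKO over P301S the members' median is 0.60 against -0.23 for all genes, and in P301S over WT it is -0.52 against 0.21.

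The comparisons that do not involve the P301S library showed smaller differences. Between P301S/EKO and EKO, which differ by the transgene, 0 members were at least 1.5-fold lower, where 3.14% of all genes were, and 0 at least 1.5-fold higher, where 7.49% were. Fdps stood at 0.792 of the EKO level (0.714 to 0.878), and the intervals of the other 7 members held 1. Between EKO and WT, 0 members were at least 1.5-fold lower, where 9.19% of all genes were, and 0 at least 1.5-fold higher, where 3.03% were. Mvd was 1.41-fold (1.08 to 1.83), Fdps 1.26-fold (1.15 to 1.39) and Pmvk 1.22-fold (1.03 to 1.43) the WT level. The members' median log2 ratio was -0.18 in P301S/EKO over EKO and 0.02 in EKO over WT. Summed over the 8 genes, the arm took 191 CPM in P301S/EKO (182 to 200), 153 in P301S (144 to 162), 222 in EKO (212 to 232) and 198 in WT (191 to 207).

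The later steps of the pathway were read from 12 genes of the squalene and sterol arm. In P301S/EKO over P301S, 4 of the 12 were at least 1.5-fold higher, where 2.26% of all genes were, and 0 lower, with a median log2 ratio of 0.24 against -0.23 over all genes. Sqle, squalene epoxidase, was 1.93-fold the P301S level, Cyp51, the lanosterol demethylase, 1.76-fold, Msmo1, a sterol methyl oxidase, 1.66-fold, and Hsd17b7, a reductase of sterol ketones, 1.53-fold. In P301S over WT, with which this comparison shares the P301S library, 4 of the 12 were at least 1.5-fold lower, where 2.50% of all genes were, and 0 higher, with a median of -0.38 against 0.21 over all genes. There Sqle stood at 0.496 of the WT level, Msmo1 at 0.613, Cyp51 at 0.646 and Hsd17b7 at 0.658. None of the 12 passed the limit in P301S/EKO over EKO, with a median of -0.22, or in EKO over WT, with a median of 0.27.

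Among 6 genes of sterol sensing, directions differed. Insig1, which holds SREBP back when sterols abound, was at least 1.5-fold higher in P301S/EKO than in P301S, as were 2.26% of all genes. It was at least 1.5-fold lower in P301S than in WT, as were 2.50%. Srebf1, whose product drives genes of fatty acid synthesis, was past the limit the other way. It was lower in P301S/EKO than in P301S, as were 22.6% of all genes, and higher in P301S than in WT, as were 19.7%. A shift in those directions was thus common among all genes. In EKO over WT, 0 of the 6 genes passed the limit, where 9.19% of all genes were that much lower and 3.03% higher. Of 10 genes of prenyl transfer and the isoprenoid branches, which use the products of Fdps and Ggps1, 0 passed it in any of the 4 comparisons, with medians between -0.20 and 0.12. The share of all genes past it ran from 2.26% to 22.6%, by comparison and direction. Acat1, the mitochondrial thiolase, also stayed within the limit in all 4, at 35.6 CPM in P301S/EKO, 36.2 in P301S, 34.5 in EKO and 37.9 in WT.

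**Figure D3:**
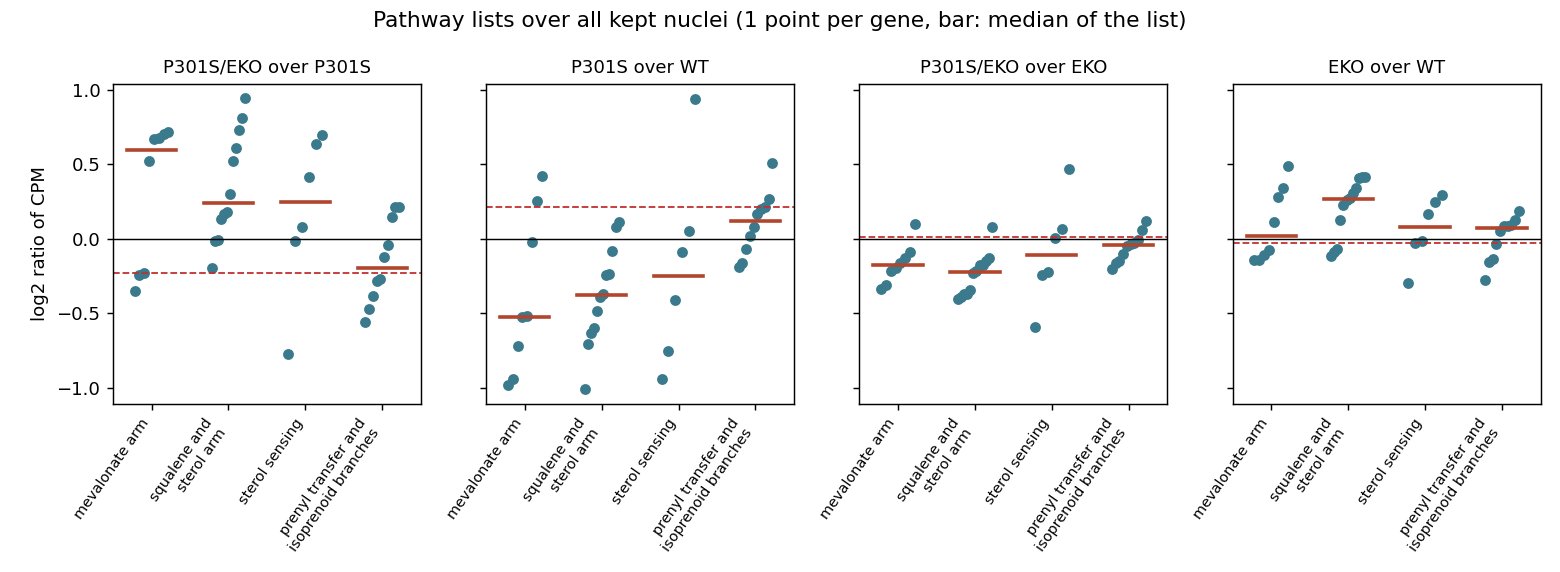
Log2 ratios of the members and of the other pathway lists over all kept nuclei, 1 point per gene with at least 20 UMIs over both libraries, with a bar at the median of each list and a dashed line at the median of all genes compared. In P301S over WT the medians are -0.52 for the 8 members and -0.38 for the 12 genes of the squalene and sterol arm, against 0.12 for the 10 genes of prenyl transfer and isoprenoid branches.

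Across classes of nuclei, the means of Hmgcs1, Mvk, Mvd and Idi1 over the 4 libraries were highest in astrocyte-like nuclei. Hmgcs1 averaged 136 ± 52.1 CPM there (SD over 4 libraries, which differ in genotype), 61.5 ± 28.2 in endothelial cell-like nuclei and 19.9 ± 8.97 in dentate granule neuron-like nuclei, the lowest class. Idi1 averaged 60.6 ± 36.7 CPM in astrocyte-like nuclei, Mvd 25.9 ± 17.3 and Mvk 24.4 ± 8.79. Acat2 was highest in endothelial cell-like nuclei, at 22.8 CPM, and Ggps1 in CA1 neuron-like nuclei, at 13.7 CPM. Astrocyte-like nuclei held 12.7% of the Hmgcs1 UMIs of P301S/EKO, 10.98% of those of P301S, 12.4% in EKO and 13.2% in WT, though they gave 2.74%, 3.52%, 2.51% and 4.42% of all UMIs. Fdps had class means between 54.4 CPM in CA1 neuron-like and 97.2 CPM in subicular or cortical excitatory neuron-like nuclei. Pmvk was highest in endothelial cell-like nuclei, at 51.8 CPM, and lowest, at 16.0 CPM, in nuclei like CA2 or CA3 neurons. For every member the ranges of neighbouring classes in this order overlapped. The top genes of the endothelial cell-like class, of 514 nuclei, also included Rgs5 and Acta2, listed as markers of pericytes and smooth muscle. At Leiden resolution 2, 310 nuclei took the endothelial name and 214 a fibroblast name, which no cluster took at resolution 1. The values of this class may therefore not be endothelial alone.

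Astrocyte-like nuclei numbered 204 in P301S/EKO, 121 in P301S, 204 in EKO and 293 in WT. Hmgcs1 stood there at 162 CPM in P301S/EKO (40 UMIs), 68.3 in P301S (18 UMIs), 188 in EKO (42 UMIs) and 125 in WT (67 UMIs). P301S was the low library, at 0.544 of the WT level (0.304 to 0.927), and P301S/EKO stood 2.38-fold above P301S (1.33 to 4.41). Idi1 had 85.3 CPM in P301S/EKO (21 UMIs), 26.5 in P301S (7 UMIs), 98.6 in EKO (22 UMIs) and 31.8 in WT (17 UMIs). Both libraries without Apoe were high, with EKO 3.10-fold above WT (1.57 to 6.22) and P301S/EKO 3.21-fold above P301S (1.32 to 8.95). Fdps had 60.9 CPM in P301S/EKO (15 UMIs), 41.7 in P301S (11 UMIs), 152 in EKO (34 UMIs) and 116 in WT (62 UMIs). Both libraries with the tau transgene were low, with P301S at 0.359 of WT (0.171 to 0.688) and P301S/EKO at 0.400 of EKO (0.202 to 0.754).

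In astrocyte-like nuclei 17.7% of 6287 genes were at least 1.5-fold lower in P301S than in WT and 22.8% higher, so a difference of that size was common there. Of the 4 members with at least 20 UMIs over both libraries, a minimum that a gene can pass through the larger WT class alone, Hmgcs1, Fdps and Pmvk were that much lower, Pmvk at 32.5 CPM in P301S/EKO, 22.8 in P301S, 53.8 in EKO and 54.3 in WT. In P301S/EKO over P301S, Hmgcs1 and Idi1 were at least 1.5-fold higher, as were 12.6% of 4514 genes. The share of genes at least 1.5-fold lower in P301S/EKO than in EKO was 15.8%, with Fdps and Pmvk among them, and the share at least 1.5-fold higher in EKO than in WT was 14.7%, with Idi1 and Mvd among them. Here Pmvk rested on 8 UMIs in P301S/EKO and 12 in EKO, just at the minimum of 20. Mvd rested on 10 UMIs in EKO and 12 in WT, with overlapping counting intervals (21.5 to 82.4 and 11.6 to 39.2 CPM). Of the squalene and sterol arm, Msmo1 had 418 CPM in P301S/EKO (103 UMIs), 152 in P301S (40 UMIs), 628 in EKO (140 UMIs) and 301.4 in WT (161 UMIs), lowest in P301S. The 6 neuronal transcripts counted in astrocyte-like nuclei summed to 926 CPM in P301S/EKO, 861 in P301S, 1040 in EKO and 1659 in WT, and the 7 markers of astrocytes to 14660, 13605, 12653 and 8443 CPM. The WT class thus held the most neuronal RNA per astrocyte marker. With mixed nuclei left out, those whose share of neuronal UMIs was above 50% of the CA1 median, the log2 ratio of P301S over WT was -0.91 for Hmgcs1 and -2.07 for Fdps, against -0.87 and -1.45 with them. With free RNA subtracted it stayed below 0 for both genes, at -0.65 or -1.28 for Hmgcs1 and -1.69 or -1.94 for Fdps, by either profile of free RNA. For Idi1 the log2 ratio of EKO over WT fell from 1.59 to 1.21 without mixed nuclei, and to 1.55 or 1.23 with free RNA subtracted. That of P301S/EKO over P301S was 1.61 for Idi1, 1.64 without mixed nuclei, and 1.70 or 1.60 with free RNA subtracted.

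**Figure D4:**
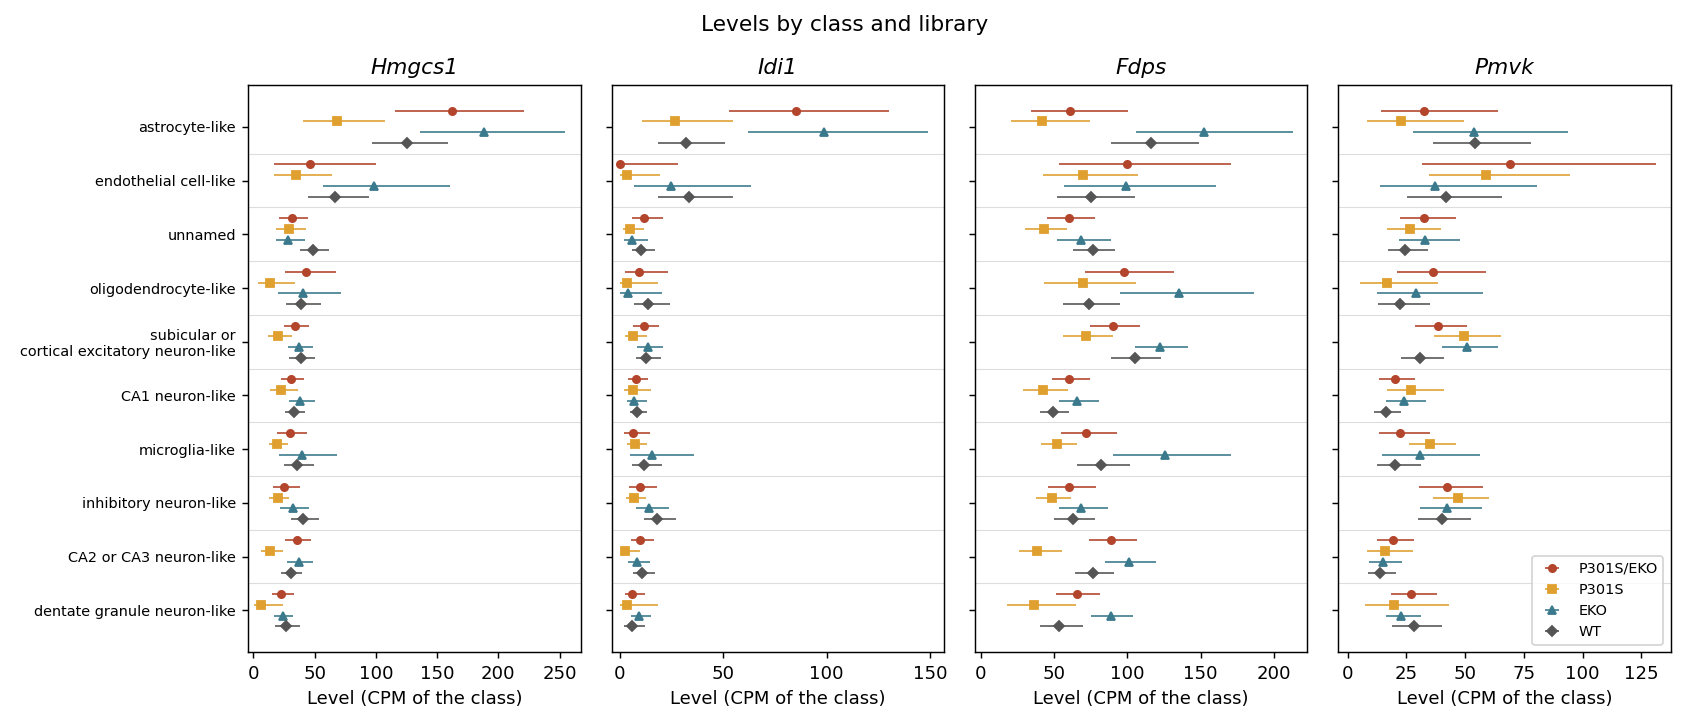
Levels of Hmgcs1, Idi1, Fdps and Pmvk in each class of nuclei, with 1 point per library and its 95% counting interval, in CPM of the class. Astrocyte-like nuclei lie highest for Hmgcs1, at 162 CPM in P301S/EKO, 68.3 in P301S, 188 in EKO and 125 in WT. For Idi1 they lie highest in P301S/EKO, P301S and EKO, while in WT the endothelial cell-like class stands at 33.2 CPM against their 31.8.

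Outside astrocyte-like nuclei the P301S library was also low for some members. Of the 10 classes with at least 50 nuclei in all libraries, astrocyte-like nuclei included, Fdps was lowest in P301S in 10, Hmgcs1 in 9, Acat2 and Idi1 in 8 each, Mvd in 4 and Mvk in 1, while Ggps1 was highest in P301S in 7. Pmvk, highest in P301S over all nuclei, was highest there in 3 classes and lowest in 3. The like counts over all genes were not made. Fdps was highest in EKO in 8 classes. Many of these class levels rest on few UMIs, and the classes of a library share its depth and free RNA, so they are not replicates. In microglia-like nuclei Fdps had 71.6 CPM in P301S/EKO, 52.1 in P301S, 126 in EKO and 82.2 in WT, and Hmgcs1 had 29.6, 19.3, 39.9 and 35.8 CPM in that order. Neuronal transcripts summed there to 1950 CPM in P301S/EKO, 1786 in P301S, 2331 in EKO and 2296 in WT, more than in astrocyte-like nuclei. By the rule above, 64.6%, 63.6%, 65.5% and 82.1% of these nuclei were mixed. In the same order, the 8 oligodendrocyte markers summed there to 5230, 4609, 5522 and 3777 CPM. The 8 microglia markers summed to less, at 4433, 2677, 4938 and 2302 CPM. In oligodendrocyte-like nuclei, the myelin-forming class, Fdps had 97.7 CPM in P301S/EKO, 69.4 in P301S, 135 in EKO and 73.5 in WT, and Hmgcs1 had 43.2, 13.2, 40.2 and 39.2 CPM in that order, the P301S value from 4 UMIs. Neuronal transcripts summed there to 2070 CPM in P301S/EKO, 1938 in P301S, 2493 in EKO and 2396 in WT, and 62.1%, 59.0%, 67.3% and 79.9% of the nuclei were mixed by the rule above. How much of these levels is neuronal RNA, or in microglia-like nuclei oligodendrocyte RNA, was not tested.

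Summed over all neuron-like classes with a name, Hmgcs1 had 30.2 CPM in P301S/EKO (188 UMIs), 18.4 in P301S (77 UMIs), 33.6 in EKO (234 UMIs) and 34.1 in WT (259 UMIs). P301S was low, at 0.54 of WT (0.41 to 0.70). In these neurons 4 of the 8 members were at least 1.5-fold higher in P301S/EKO than in P301S, where 2.62% of genes were, and 3 were that much lower in P301S than in WT, where 2.47% were. Ggps1 was the 1 member at least 1.5-fold higher in P301S over WT, where 18.0% of genes were, and Mvd the 1 member that much higher in EKO over WT, where 3.84% were. Ggps1 had 10.6 CPM in P301S/EKO, 15.5 in P301S, 12.2 in EKO and 10.3 in WT, with P301S at 1.51-fold the WT level (1.07 to 2.13). Mvd had 10.8 CPM in P301S/EKO, 6.92 in P301S, 13.8 in EKO and 8.96 in WT, with EKO at 1.54-fold the WT level (1.12 to 2.13). In nuclei like CA2 or CA3 neurons, Fdps had 89.0 CPM in P301S/EKO, 38.5 in P301S, 101 in EKO and 76.6 in WT, so that P301S/EKO stood 2.31-fold above P301S (1.53 to 3.60) and P301S at 0.50 of WT (0.32 to 0.76). In dentate granule neuron-like nuclei Fdps was 1.66-fold higher in EKO than in WT (1.21 to 2.29).

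Free RNA in the droplets touches these class values. With a profile from the barcodes of lowest UMI count subtracted, Hmgcs1 stayed lower in P301S than in WT in 2 of 10 classes, astrocyte-like and endothelial cell-like, and Fdps in 5 of 10. That profile rests on 24 Hmgcs1 UMIs in P301S/EKO, 1 in P301S, 6 in EKO and 27 in WT. With a profile from all kept nuclei, Hmgcs1 stayed lower in 9 of 10 classes and Fdps in 8 of 10. The subtractions were not run on all nuclei together, where the part of free RNA was not tested.

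Over 43 sums of a class in a library, which share libraries and depth, the genes most like each member were described by Pearson's r of log2(CPM + 10) among 11129 genes. Fdps was most like Sqle (0.62) and Srebf2 (0.59), followed by Sirt1. Mvd was most like Msmo1 (0.64). Acat2 was most like Borcs6 (0.65), followed by Cebpzos (0.62) and Insig1 (0.60). Hmgcs1 was most like C1d (0.83), Entpd2 and Cyp4f15, and Idi1 most like Pax6 (0.81), Btbd17 and Cyp4f15. The gene most like Mvk was Ube2j1 (0.74), that most like Pmvk was Rnf103 (0.73) and that most like Ggps1 was Ttll11 (0.60). Within the arm, Hmgcs1 was correlated with Mvk at 0.72 and with Idi1 at 0.70, and with both less closely, at 0.54 and 0.48, once class means were removed. These were the closest pairs before that removal. Other pairs ran down to -0.27, for Fdps with Ggps1. With class means removed, pairs ran from 0.60, for Mvk with Mvd, down to -0.41, for Acat2 with Ggps1. The members thus did not all vary together.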

How the data were processed

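Nuclei of 4 pooled hippocampus libraries, 1 per genotype, were compared by the groups given in the labels. Deposited were UMI counts, whole numbers for 27998 genes in each barcode. Cell Ranger, the mm10 genome and Seurat are named per the submitters' processing notes. Their versions, and whether intron reads were counted, which would change levels of nuclear RNA, are not given here by any label.

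The software was scanpy 1.11.5 with igraph 0.11.9 and scikit-learn 1.9.0 for clustering, scipy 1.17.1, numpy 2.4.6 and pandas 2.3.3 for intervals and sums, and matplotlib 3.10.9 for figures, under Python 3.11.15. A barcode was kept if it had 200 genes or more and mitochondrial UMIs of 5% or less. Scrublet's own threshold called 0 or 1 doublets per library, so the highest scores were removed at 0.8% per 1000 barcodes: 249 in P301S/EKO, 69 in P301S, 238 in EKO and 242 in WT. Nuclei were clustered together (2000 variable genes, 30 components, 15 neighbours, Leiden resolution 1) without the members, the other pathway genes and Apoe. A cluster was named where at least 3 markers of a set stood 1.5-fold above other nuclei. At resolution 2 the naming rule was tightened after a neuronal cluster had taken a fibroblast name.

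UMIs were summed per class and library and scaled to CPM. Levels carry exact Poisson intervals and folds exact conditional binomial intervals. Log2 ratios use a prior of 0.5 UMI, need at least 20 UMIs over both libraries, and count as higher or lower from 1.5-fold. With 1 library per genotype no test was possible. All members were named in every library. Other pathway genes were named by their ratios, at most 2 per direction and comparison where the interval leaves out 1. Acat1, Acat3 and further list members were added after their values were seen, and some list members are not reported here. The members and lists were chosen with earlier results of these data known, and the promoter motifs after the sequences had been displayed. Gene positions are from GENCODE vM21 (GRCm38), near copies from alignment of 3′ ends.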

Additional observations from a re-analysis of the deposited data

How the results depend on the processing

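With 1 library per genotype, no replicate could be left out and no difference has a replicate check. No paired analysis was possible because each genotype is 1 library without a replicate number. Over all nuclei, the members' medians and counts gave 84 values under 7 alternatives, and 2 moved, both under median-of-ratios scaling: the members' median log2 ratio in P301S/EKO over P301S became 0.84, and 5 members were at least 1.5-fold lower in P301S than in WT in place of 3. Of 224 single member ratios over all nuclei, 3 moved (Fdps to 0.77 in P301S/EKO over P301S and to -0.76 in P301S over WT under that scaling, Hmgcs1 to 0.08 in EKO over WT with classes weighted as in WT), and 9, each short of 1.5-fold as reported, changed sign. That scaling thus took Fdps past the 1.5-fold limit in P301S/EKO over P301S. In the same comparison the lowest log2 ratios over the 7 alternatives were 0.571 for Hmgcs1 and 0.573 for Mvd, just short of 1.5-fold. A member could therefore cross the limit without being counted as moved. Weighting classes as in WT, an alternative added after the values were seen, gave medians of 0.66 in P301S/EKO over P301S and -0.56 in P301S over WT. Of 2817 log2 ratios and medians recomputed over all nuclei and classes, 200 changed sign, 57 of them with the free RNA profile of the lowest barcodes and 29 with that of all kept nuclei. For 183 of the 200 the value as reported was short of 1.5-fold.

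The other 17 were at least 1.5-fold as reported. Of these, 15 came with the profile of the lowest barcodes, whose construction was detailed after the files had been seen. In microglia-like nuclei Hmgcs1 became -5.78 in P301S/EKO over P301S and 5.67 in P301S over WT, and Fdps 0.95 in P301S/EKO over EKO, 0.016 in P301S over WT and -1.19 in EKO over WT. In oligodendrocyte-like nuclei the members' median in P301S/EKO over P301S became -0.37, Hmgcs1 became -2.92 there and 3.80 in P301S over WT, and Fdps -4.38 in EKO over WT. Hmgcs1 in P301S over WT became 2.92 in dentate granule neuron-like, 0.053 in CA2 or CA3 neuron-like, 0.53 in subicular or cortical excitatory neuron-like, 0.58 in inhibitory neuron-like and 0.11 in unnamed nuclei, and in P301S/EKO over P301S -0.095 in subicular or cortical excitatory neuron-like nuclei. The remaining 2 came with the profile of all kept nuclei, added after the values were seen: in microglia-like nuclei, P301S over WT became 0.89 for Hmgcs1 and 0.59 for Idi1. The cause was not tested, beyond the few UMIs per gene in the profile.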
